A study of Mus musculus with 12 samples.

Results

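The genes described here encode the proteins of the cytoplasmic ribosome. They were chosen by symbol, as every gene named Rpl or Rps with a number, the stalk genes Rplp0 to Rplp2, and Rpsa, without rows marked as pseudogenes. The rule found 84 genes among the 23420 in the count files, of which 51 belong to the large (60S) subunit and 33 to the small (40S) subunit. The study sequenced RNA of 12 mouse libraries in 4 groups of 3, which trace embryonic fibroblasts (MEF) on their way to induced pluripotency (iPSC). Stage1 was taken at day 6 and Stage2 after 4 further days, and the iPSC were established ones. Per the series text, Stage1, Stage2 and iPSC cells were selected by sorting as Oct4-GFP+, that is, by fluorescence reporting on Pou5f1 (Oct4), a core gene of pluripotency, while MEF were unsorted. All 4 groups carry the same strain label, a mixture of C57BL/6 and 129. The labels used here name neither the reprogramming factors nor whether the 3 libraries of a group came from separate cultures, so p-values measure only the spread between these libraries, which may be technical.

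Each ribosome is assembled in the nucleolus from ribosomal RNA and a set of ribosomal proteins, which together decode messenger RNA on the small subunit and join amino acids on the large one. The messenger RNAs of ribosomal proteins begin with a C and a run of pyrimidines, the 5′ terminal oligopyrimidine (TOP) motif, through which mTORC1 and Larp1 control their translation. Some ribosomal proteins have a relative encoded elsewhere in the genome and known for particular tissues, such as Rpl10l and Rpl39l in the male germ line and Rpl3l in striated muscle.

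Reads counted on genes numbered 8916223 to 19011944 per library. Titles set the groups here. The stage given among the characteristics named another group in 12 of 12 libraries. Marker genes set the libraries titled MEF apart from the others, whereas which of the others are Stage1, Stage2 or iPSC rests on the titles. All comparisons among those groups depend on this choice. The summed level of 10 fibroblast markers was 14863 to 20687 CPM (counts scaled to a common library size) in the libraries titled MEF and 20.5 to 177 in the others, and 10 pluripotency markers summed to 3.94 to 4.62 CPM in MEF and 2496 to 4611 CPM elsewhere. Macrophage markers, also 10, summed to 135 to 154 CPM in MEF and 25.2 to 58.2 CPM elsewhere, with 8 of the 10 called lower at Stage1 and in iPSC than in MEF, and their part in the results was not tested. Reads outside genes are given, here and below, as a share of reads on genes, outside genes or ambiguous. Unaligned, multiply aligned and low-quality reads are left out of it. They made up 8.86% to 9.42% of such reads in MEF and 35.0% to 53.4% in the other groups. MEF thus differed from the rest in library make-up as well as in cell type. MEF libraries also gave 4.60% to 12.8% of gene counts to structural and small RNA, against 0.787% to 2.22% elsewhere, and the highest value was that of MEF replicate 2. In comparisons with MEF, cell type and library make-up cannot be told apart.

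Of the 84 genes, 82 had enough counts to be tested. Rpl26 had 0 counts in all 12 libraries, and Rpl30 was listed with 3, 15, 6 and 10 counts in MEF, Stage1, Stage2 and iPSC. Rpl34 and Rps27 were tested but stayed at 0.0668 to 3.14 CPM in every library. Every cell uses these proteins, so the levels of these 4 genes cannot be read from the files, and the cause was not tested. They are kept in the counts below and are not discussed further. Per GENCODE, of their 50-base stretches, 71.3% for Rpl26, 76.4% for Rpl30, 50.6% for Rpl34 and 98.7% for Rps27 also occur in a transcript of another gene, whereas the median over the 84 genes was 54.1%. Some genes named below also had high shares, such as Rpl5 (93.8%), Rpl9 (93.3%), Rpl10 (92.1%), Rps12 (90.1%) and Rpl10a (88.1%). Others had lower ones, such as Rpl11 (62.2%), Rps9 (33.05%) and Rpl4 (16.45%). The part of shared sequence in their levels was not tested. Levels below are CPM scaled by TMM, the trimmed mean of M values, unless stated, and a gene was called at an adjusted p below 0.05 in the quasi-likelihood test of edgeR, adjusted by Benjamini-Hochberg over 14770 genes.

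Ribosomal protein genes took the largest share of gene counts in iPSC. The share was 6.08%, 7.47% and 5.59% in the 3 MEF libraries, with a mean of 6.38% ± 0.977 (SD, n = 3). It was 7.64%, 7.84% and 7.34% at Stage1 (7.61% ± 0.254), and 6.75%, 7.10% and 6.58% at Stage2 (6.81% ± 0.266). In iPSC it was 9.65%, 8.67% and 9.13% (9.15% ± 0.491). All iPSC libraries thus lay above all others, all Stage2 libraries lay below all Stage1 libraries, and MEF replicate 2 lay within the range of Stage1 while the other 2 MEF libraries, with a mean of 5.84%, lay below every other library. Without structural and small RNA in the total, the MEF libraries stood at 6.44%, 8.57% and 5.86% (6.96% ± 1.43). Stage1 then stood at 7.40% to 7.93%, below MEF replicate 2, and Stage2 at 6.64% to 7.19% (mean 6.91%). All iPSC libraries, at 8.81% to 9.85%, remained the highest. With 3 libraries against 3, an exact permutation test cannot reach a two-sided p below 0.10, so no test is given. The share of the 60S genes was 3.83% ± 0.512 in MEF, 5.03% ± 0.148 at Stage1, 4.52% ± 0.128 at Stage2 and 6.14% ± 0.361 in iPSC. The share of the 40S genes was 2.55% ± 0.465, 2.58% ± 0.123, 2.29% ± 0.139 and 3.01% ± 0.131 in the same order. As shares of all gene counts, the 60S values of every Stage1 library lay above those of every MEF library, while the 40S values overlapped. Subunit shares were not computed without structural and small RNA, which took 12.8% of gene counts in MEF replicate 2.

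**Figure D1:**
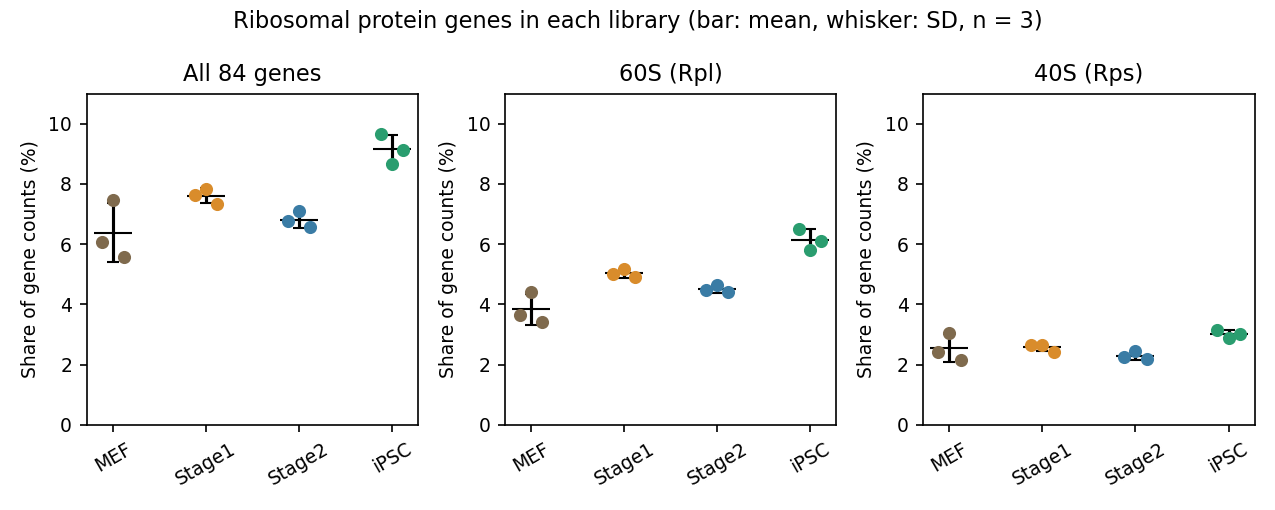
Share of gene counts (%, y axis) on all 84 ribosomal protein genes, the 51 of the 60S and the 33 of the 40S subunit, for each library (points) by group (x axis), with the mean and SD of 3 libraries. The iPSC libraries, at 8.67% to 9.65% for all genes, sit above the rest, and MEF replicate 2 stands above its group at 7.47%.

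Between MEF and Stage1 the ribosomal protein genes changed in both directions, with a narrower spread than all genes tested. Of the 82 tested, 29 were called higher and 25 lower at Stage1, whereas 44.2% and 36.1% of all genes tested were called in those directions. The median log2 fold change of the 82 was 0.02, against 0.27 for all genes tested, and the middle 50% of the 82 spanned 1.23 on the log2 scale, against 3.28 for all genes. Rpl10l and Rpl3l had 0 counts in MEF, and their lower bounds, 4.49 and 2.49 on the log2 scale, lie above the median. Setting them to these bounds therefore could not change it. In 27 genes every Stage1 library lay above every MEF library and in 24 every one lay below, where the shares over all genes were 43.9% and 35.4%. Of 49 tested 60S genes, 21 rose and 15 fell (median 0.30), and of 33 tested 40S genes, 8 rose and 10 fell (median -0.14). With all libraries in the fit, the counts thus stood below the background in both directions, which did not hold without single MEF libraries, as given below. The direction differed from gene to gene within each subunit.

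The genes that rose most came from both subunits. Rpl4, a core protein of the 60S lining the exit tunnel, measured 1171, 1002 and 1172 CPM in MEF and 3634, 4114 and 3951 CPM at Stage1. Its log2 fold change was 1.81 ± 0.13 (SE), and no library overlapped (edgeR, adjusted p = 6.09e-10). Rps23, which lies at the decoding centre of the 40S, measured 507, 576 and 435 CPM in MEF and 1442, 1686 and 1573 CPM at Stage1, for a log2 fold change of 1.63 ± 0.14. Rpl5, which carries 5S ribosomal RNA into the 60S together with Rpl11 and binds Mdm2, measured 1354, 2007 and 1060.2 CPM in MEF and 4198, 4512 and 4009.7 CPM at Stage1. Its log2 fold change was 1.52 ± 0.19, whereas that of its partner Rpl11 was 0.22 ± 0.15 and was not called (edgeR, adjusted p = 0.207). Rpl36a, Rpl7l1 and Rpl3, another core 60S protein, rose with log2 fold changes of 1.28 ± 0.14, 1.40 ± 0.18 and 0.98 ± 0.17. An exon of Rpl5 overlaps an exon of Fam69a on the other strand, and with the strand setting of the counting not given in the sources used here, reads of such pairs cannot be told apart.

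The genes that fell most are likewise from both subunits. Rpl10a, the protein of the mobile L1 stalk, measured 1852, 2149 and 1263 CPM in MEF and 564, 573 and 463 CPM at Stage1, for a log2 fold change of -1.72 ± 0.17. Rps2, at the messenger RNA entry channel of the 40S, measured 1992, 2374 and 2818 CPM in MEF and 796, 757 and 632 CPM at Stage1, also with a log2 fold change of -1.72 ± 0.17. In both genes the lowest MEF library lay above the highest Stage1 library. Rpl18 fell by 1.52 ± 0.18 on the log2 scale, and an exon of it overlaps Sphk2 on the other strand. Rpl10, which joins the 60S late near the peptidyl transferase centre, fell by 1.41 ± 0.13. Rpl39l and Rpl22l1 fell further and are described with their relatives.

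The stalk of the 60S, which recruits elongation factors, split between its 3 genes. Rplp2 measured 282, 390.1 and 331 CPM in MEF and 1235, 1118 and 1146 CPM at Stage1, for a log2 fold change of 1.80 ± 0.18. Rplp1, its partner, measured 2283, 2815 and 3091 CPM in MEF and 1241, 1335 and 1510.2 CPM at Stage1, with means of 2729.8 ± 411 and 1362 ± 137 CPM (SD, n = 3, edgeR, adjusted p = 1.4e-05). Rplp0, the base of the stalk, measured 1754, 2862 and 2221 CPM in MEF and 1477, 1582 and 1399 CPM at Stage1, for a log2 fold change of -0.62 ± 0.16. Rplp2 therefore rose while both other stalk genes fell, with no overlap of libraries in any of the 3.

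Among 40S genes known for other roles, the log2 values from MEF to Stage1 lay between -0.80 and 0.42. Rps6, the substrate of the S6 kinases, rose by 0.42 ± 0.14 on the log2 scale. Rpsa, also known as the laminin receptor, had a log2 fold change of -0.54 ± 0.15, and Rps19, the gene most often mutated in Diamond-Blackfan anaemia, one of -0.80 ± 0.21. Rps27a, made as a fusion to ubiquitin, had a log2 fold change of -0.22 ± 0.17 and was not called (edgeR, adjusted p = 0.25).

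The comparison of Stage1 with MEF rested in part on single MEF libraries and on the model. Without MEF replicate 2, 40 of 82 genes were called higher, a larger share than the 6622 of 15256 over all genes. Without replicate 3, 32 of 82 were called lower, also a larger share than the 5245 of 15220 over all genes. The median was 0.33 without replicate 2, whereas without replicate 1 or 3 it was -0.087 or -0.099. With the trend over GC content removed, or with only MEF and Stage1 in the fit, 18 genes were called higher in each, and the median was -0.087 and -0.066. Over all genes, 5804 of 14624 and 5171 of 13315 were called higher in these fits. With the GC trend removed the log2 fold changes of Rpl7, Rpl39 and Rps4x were -0.086, -0.22 and -0.28, where they had been called higher at 0.55, 0.58 and 0.34.

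**Figure D2:**
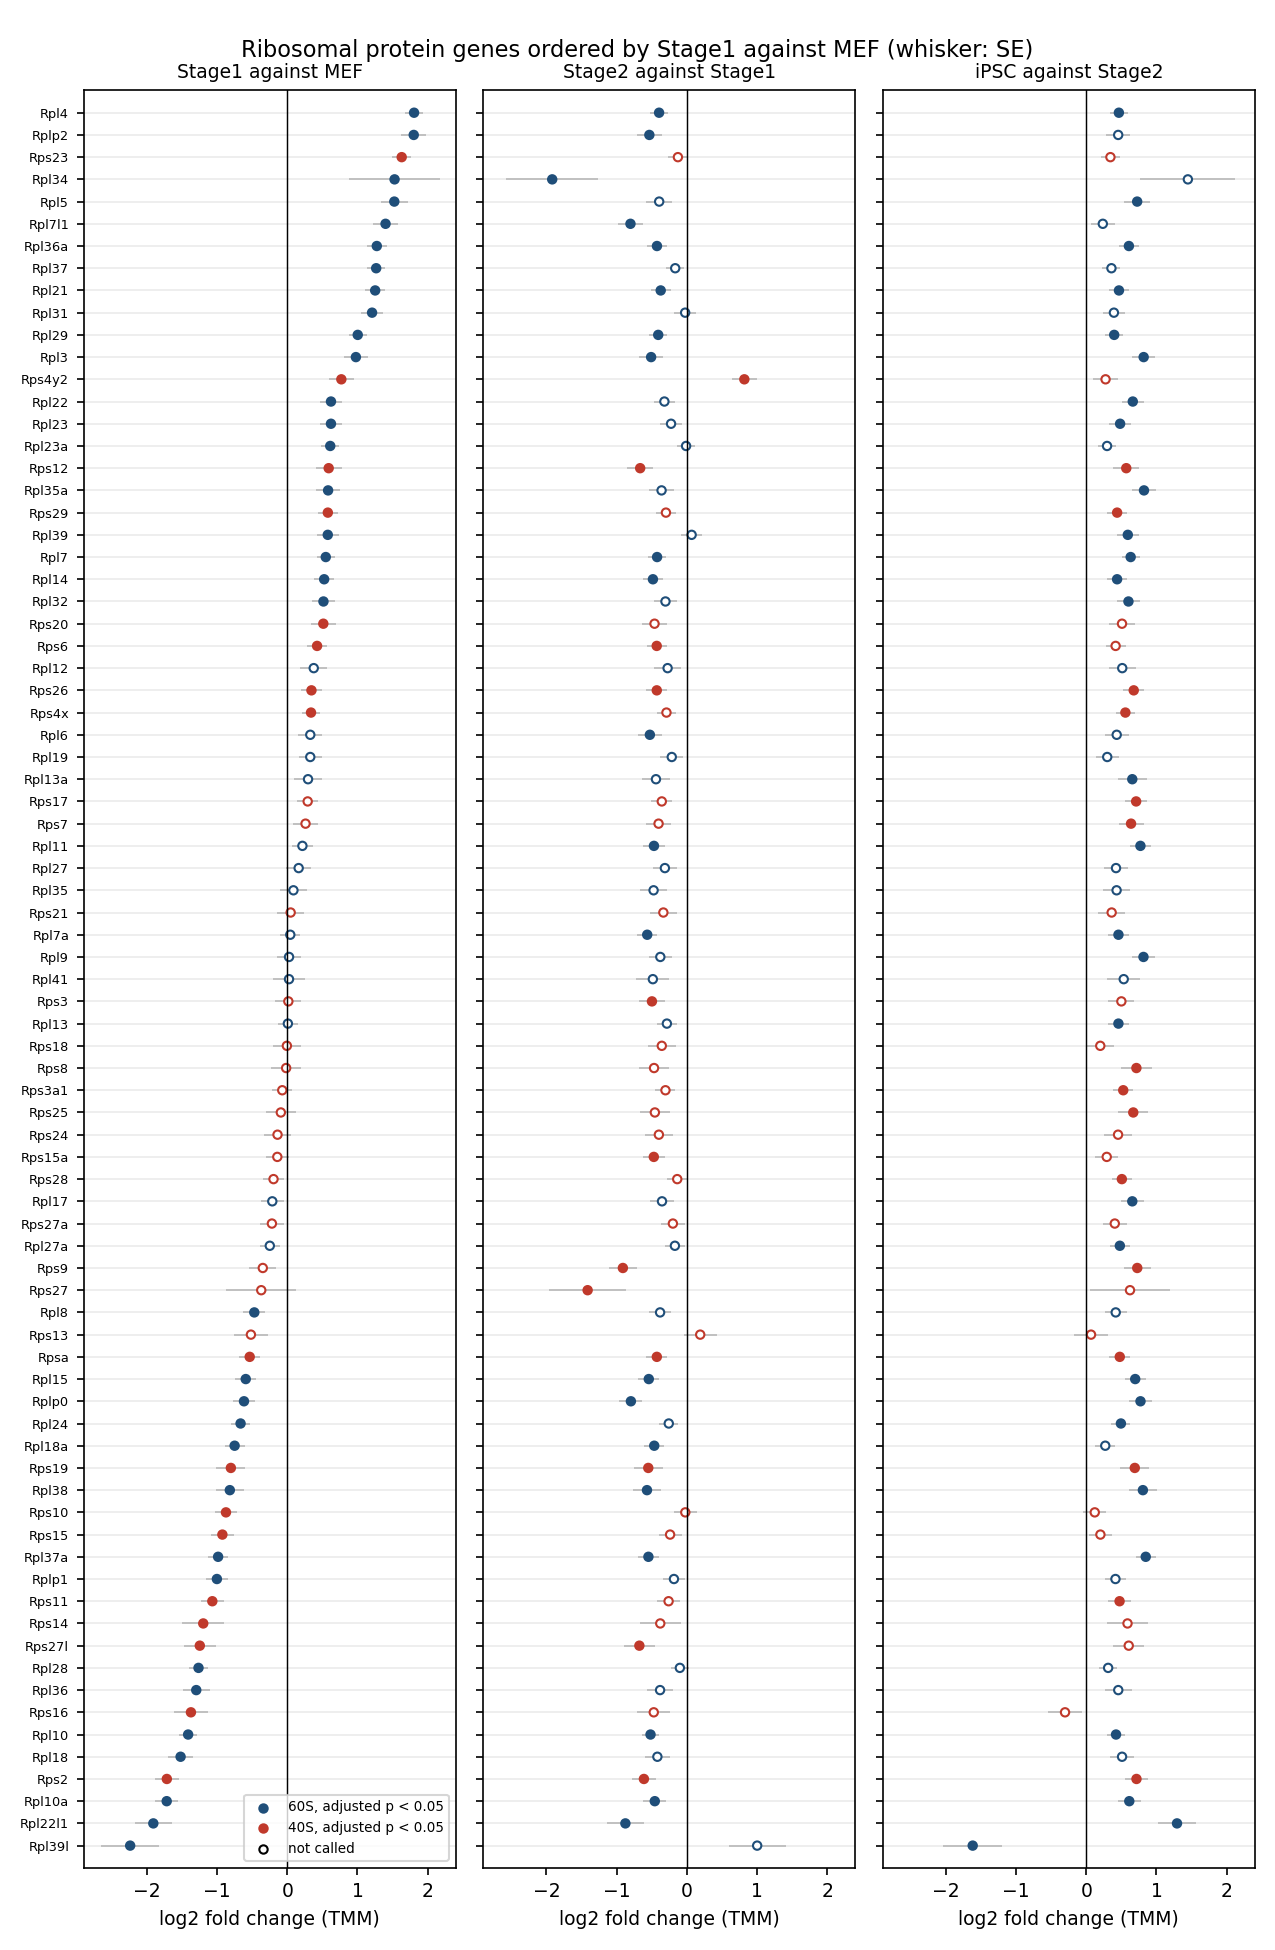
Log2 fold change with SE (x axis) of tested ribosomal protein genes (rows) in 3 panels (Stage1/MEF, Stage2/Stage1, iPSC/Stage2), ordered by the first. Filled points passed an adjusted p below 0.05, blue marks the 60S and red the 40S subunit, and Rpl10l and Rpl3l are left out since they had 0 counts in MEF. The first column runs from 1.81 to -2.24 across the genes, and in the other columns most points lie to the left and then to the right of 0.

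From Stage1 to Stage2 the values of most ribosomal protein genes were lower by a similar amount, and 32 genes of both subunits fell. Of the 82 tested, 76 had a negative log2 fold change and 32 were called lower, against 19.8% of all genes tested. Only 2 were called higher, against 20.6% of all genes. The median was -0.40, against 0.02 for all genes, and the middle 50% of the genes spanned 0.22 on the log2 scale, against 1.14. In 61 of the 82 every Stage2 library lay below every Stage1 library, against 30.2% of all genes, and in 3 every one lay above, against 29.4%. Both subunits took part, with 21 of 49 tested 60S genes and 11 of 33 tested 40S genes called lower. Between the same groups 7 of the 10 fibroblast markers were called higher. The summed level of the 10, as CPM of library totals, was 20.5 to 25.9 at Stage1 and 115 to 177 at Stage2. The share of reads outside genes was 38.1% to 45.2% at Stage1 and 47.4% to 53.4% at Stage2, also without overlap. The part of either in the lower values was not tested.

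Rps9, a 40S protein, measured 828, 859 and 749.8 CPM at Stage1 and 455, 514 and 326 CPM at Stage2, a log2 fold change of -0.91 ± 0.19 (edgeR, adjusted p = 0.00132). Rplp0 measured 909, 909 and 749 CPM at Stage2, a log2 fold change of -0.80 ± 0.16 from Stage1. Rps12 went from 1446, 1380.3 and 1220.2 CPM to 862, 902 and 789 CPM, a log2 fold change of -0.66 ± 0.19. In these 3 genes no library overlapped. Rpl22l1, Rpl7l1 and Rps27l fell as well, by 0.88, 0.80 and 0.68 on the log2 scale. Rpl34 and Rps27, whose counts were near 0, are 2 of the 32 called lower. The 2 genes called higher were Rpl10l and Rps4y2, both relatives of X-linked genes of the ribosome.

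This step is sensitive to the scaling. With library totals in place of TMM, 6 of 82 genes were called lower and 3 higher, the median was -0.19 and 66 of 82 were negative. Calls over all 14770 genes went from 3048 higher and 2921 lower to 4023 and 1679. With library totals the share called lower was thus smaller than over all genes, where with TMM it was larger. Leaving out Stage1 replicate 2, Stage2 replicate 1 or Stage2 replicate 3 left 9, 18 or 15 genes called lower. Over all genes the calls were 2115 of 15410, 2468 of 15335 and 2226 of 15135. Without Stage1 replicate 2 the share was smaller than over all genes. Leaving out MEF replicate 2 or 3 gave 49, where 3091 of 15256 and 3471 of 15220 were called lower over all genes. Medians ran from -0.46 to -0.36 over the libraries of Stage1 and Stage2.

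Library totals moved the median of all genes by over 0.1 on the log2 scale in several comparisons. It was 0.45 for Stage1 against MEF, 0.22 for Stage2 against Stage1, 0.11 for iPSC against Stage1 and 0.57 for iPSC against MEF, where TMM gave 0.27, 0.02, 0.01 and 0.29. Relative to the median of all genes, the median of the ribosomal protein genes hardly moved, which follows from the construction, since a change of scaling shifts all genes of a comparison by about the same amount. For Stage1 against MEF it stood at -0.25 with TMM and -0.23 with library totals, for Stage2 against Stage1 at -0.42 and -0.41, and for iPSC against Stage2 at 0.45 and 0.45.

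**Figure D3:**
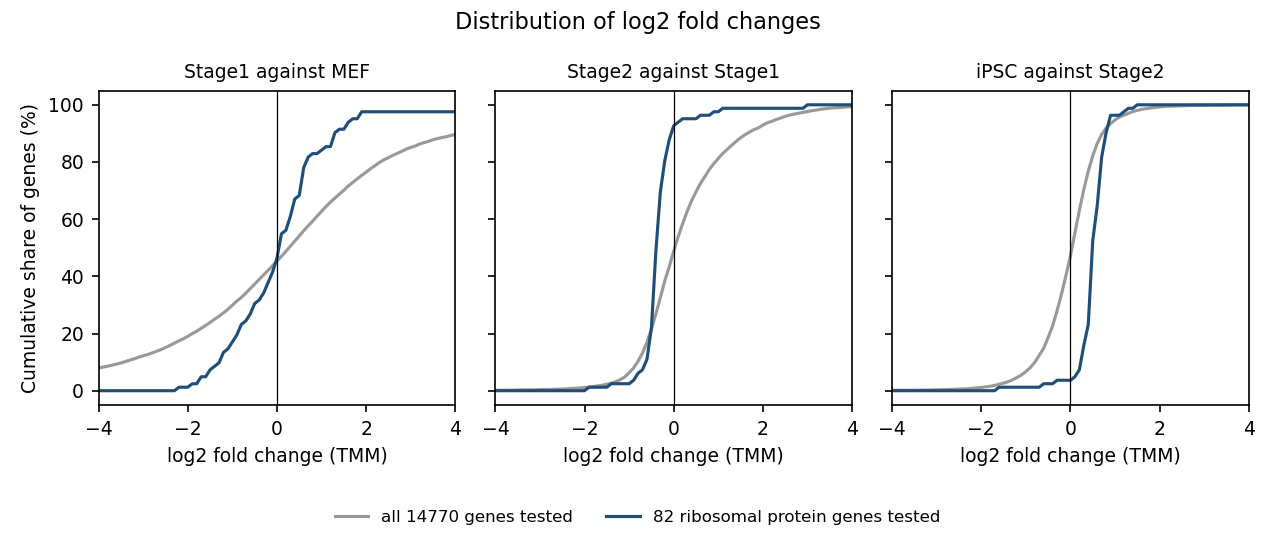
Cumulative share of genes (%, y axis) by log2 fold change (x axis) for all 14770 genes tested (grey) and the 82 ribosomal protein genes tested (blue) in 3 comparisons. For Stage1 against MEF both curves cross 0 near the same height, and in the later comparisons the blue curve is steep, around medians of -0.40 and 0.49.

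From Stage2 to iPSC 44 ribosomal protein genes of both subunits rose, and the fold changes lay close to each other. Of the 82 tested, 79 had a positive log2 fold change and 44 were called higher, against 9.21% of all genes tested. A single gene (1), Rpl39l, was called lower, against 8.87% of all genes. The median was 0.49, against 0.04 for all genes, and the middle 50% spanned 0.24, against 0.72. In 67 genes every iPSC library lay above every Stage2 library, where the share over all genes was 24.9%, and in 2 every one lay below, against 21.3%. The genes called higher were 28 of 49 tested 60S genes and 16 of 33 tested 40S genes. At this step 8 of the 10 fibroblast markers were called lower, with a summed level of 72.0 to 76.9 CPM of library totals in iPSC. Reads outside genes were 35.0% to 44.3% in iPSC, below every Stage2 library. Their part in the higher values was not tested either.

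Rpl37a, a 60S protein, went from 153, 166 and 149 CPM at Stage2 to 303, 287 and 251 CPM in iPSC, a log2 fold change of 0.85 ± 0.15 (edgeR, adjusted p = 0.00117). Rpl3 went from 1187, 1430.4 and 1330.3 CPM to 2417, 2226 and 2312 CPM, a log2 fold change of 0.82 ± 0.17. The groups did not overlap in either gene. Rpl35a and Rpl9, both of the 60S, rose by 0.82 ± 0.18 and 0.81 ± 0.17. Rps16 was one of the 3 genes with a negative value, at 199.8, 202 and 161 CPM at Stage2 and 121, 161 and 173 CPM in iPSC, with overlapping libraries.

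With library totals, 29 of 82 genes were called higher at this step, against 888 of 14770 over all genes. The median was 0.39 and 78 of 82 were positive. Leaving out a library of Stage2 or iPSC left 18 to 31 genes called higher, where 665 to 856 of 15135 to 15335 were over all genes. There were 23 and 20 without Stage2 replicates 1 and 3, and 18, 24 and 28 without iPSC replicates 1, 2 and 3. Medians lay between 0.45 and 0.57.

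Between Stage1 and iPSC few of these genes were called with TMM and all libraries in the fit. Of the 82 tested, 7 were called higher in iPSC, against 21.3% of all genes, and 2 lower, against 18.1%. The median was 0.18, against 0.01 for all genes. The genes called higher included Rpl10l, Rps4y2, Rpl39 (0.66 ± 0.15), Rpl35a (0.46 ± 0.17) and Rpl9 (0.44 ± 0.17). The genes called lower were Rps16, with a log2 fold change of -0.77 ± 0.24, and Rpl7l1, with -0.57 ± 0.17. Library totals gave 18 called higher and 2 lower, against 3542 and 2028 of 14770 over all genes. A fit of Stage1 and iPSC alone gave 31 of 81 higher, a larger share than the 3823 of 13268 over all genes. Leaving out any 1 library of Stage1 or iPSC left 3 or 4 called higher, as did leaving out Stage2 replicate 1 with 4, and leaving out MEF replicate 2 gave 14. Over all genes, these fits called 2481 to 2915, 3066 and 3424 genes higher. In 32 genes every iPSC library lay above every Stage1 library, against 30% of all genes, and in 3 every one lay below, against 28.7%.

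Between the end points, the genes again changed in both directions. Against MEF, 35 of 82 genes were called higher in iPSC and 27 lower, against 44.9% and 35.8% of all genes. The median was 0.16, against 0.29 for all genes, and the middle 50% spanned 1.42, against 3.16 for all genes. In 29 genes every iPSC library lay above every MEF library, against 45% of all genes, and in 25 every one lay below, against 35.1%. Rpl4, Rpl5, Rps23 and Rplp2 were higher in iPSC than in MEF by 1.88, 1.86, 1.85 and 1.72 on the log2 scale. Rps2, Rpl10a and Rpl10 were lower, with log2 fold changes of -1.61, -1.56 and -1.51. Of the genes called lower, Rps16 came after only Rpl39l, at 732, 920.3 and 367 CPM in MEF and 121, 161 and 173 CPM in iPSC, a log2 fold change of -2.15 ± 0.25. Of the 60S genes 25 of 49 were called higher and 15 lower, and of the 40S genes 10 of 33 and 12. This comparison and that of Stage1 with MEF share the MEF libraries. With library totals 43 were called higher and 19 lower (median 0.45), and with the GC trend removed the median was -0.036.

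Relatives of ribosomal protein genes were among those that changed most in each comparison. Ratios to the relative are counts per 100 counts of that gene, without a correction for length, and are compared only between groups. Rpl10l, a gene on chromosome 12 (mm10, 12:66283379-66284401) whose relative Rpl10 is on the X chromosome, had 0 counts in all MEF libraries. It measured 2.00, 1.34 and 1.68 CPM at Stage1, 15.2, 12.8 and 11.1 CPM at Stage2, and 10.2, 7.84 and 7.05 CPM in iPSC. Its level was at least 22.5-fold higher at Stage1 than in MEF and at least 109.7-fold higher in iPSC, with a floor of 3 counts over the 3 MEF libraries. Stage2 was above Stage1 by 2.94 ± 0.31 on the log2 scale (edgeR, adjusted p = 2.97e-06), while iPSC and Stage2 were not called different (-0.64 ± 0.27, adjusted p = 0.114). Per 100 counts of Rpl10 there were 0.181 ± 0.0366 at Stage1, 2.03 ± 0.398 at Stage2 and 0.958 ± 0.17 in iPSC. The coding sequences of both are 84.7% identical, and 7.60% of the 50-base stretches of Rpl10l occur in another gene's transcript.

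Rpl39l was lower and Rpl39 higher in iPSC than in MEF. Rpl39, an X-linked gene for a small protein at the exit tunnel, measured 465, 667 and 449.8 CPM in MEF and 1157, 1287 and 1285 CPM in iPSC, a log2 fold change of 1.24 ± 0.16. Rpl39l measured 25.2, 23.2 and 18.2 CPM in MEF, 1.45, 5.90 and 6.89 CPM at Stage1, 7.12, 8.45 and 12.5 CPM at Stage2, and 1.93, 2.91 and 4.33 CPM in iPSC. It fell from MEF to Stage1 by 2.24 ± 0.41 on the log2 scale and from Stage2 to iPSC by 1.62 ± 0.42, and the value between Stage1 and Stage2 was 1.00 ± 0.41 and was not called (edgeR, adjusted p = 0.0592). Per 100 counts of Rpl39 there were 4.32 ± 0.987 counts of Rpl39l in MEF and 0.243 ± 0.0864 in iPSC. The call from Stage2 to iPSC was lost without Stage2 replicate 3, iPSC replicate 1 or iPSC replicate 2, with adjusted p = 0.0791, 0.0841 and 0.0571 in edgeR (range over all alternatives 0.00033 to 0.0841).

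The coding sequences of this pair are shown because short reads must tell them apart. Both are 153 bases without the stop codon, and the 23 bases that differ are in capitals. They come from GENCODE transcripts, on chromosome X between 37082520 and 37085402 (minus strand) and chromosome 16 between 10170226 and 10174911 (plus strand) of mm10.
Rpl39: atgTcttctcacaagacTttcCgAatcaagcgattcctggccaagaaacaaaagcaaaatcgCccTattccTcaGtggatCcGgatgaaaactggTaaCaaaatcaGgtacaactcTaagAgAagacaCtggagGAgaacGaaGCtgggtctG
Rpl39l: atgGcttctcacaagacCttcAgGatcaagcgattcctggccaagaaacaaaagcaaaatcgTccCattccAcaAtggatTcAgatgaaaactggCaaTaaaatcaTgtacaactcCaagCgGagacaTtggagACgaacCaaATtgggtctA
No 50-base stretch of the Rpl39l transcript was found in a transcript of another gene (0%), while 16.5% of those of Rpl39 were.

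Rpl22l1, which can take the place of Rpl22 in the 60S, measured 129, 268 and 112 CPM in MEF, 42.0, 55.2 and 38.5 CPM at Stage1, 25.4, 28.9 and 19.8 CPM at Stage2, and 65.7, 63.7 and 51.7 CPM in iPSC. It fell at the first step by 1.91 ± 0.27 and at the second by 0.88 ± 0.27, then rose by 1.29 ± 0.27 on the log2 scale. Rpl22 rose at the first step (0.62 ± 0.16), so that counts of Rpl22l1 per 100 of Rpl22 went from 28.8 ± 7.5 in MEF to 5.17 ± 0.854, 3.51 ± 0.434 and 5.48 ± 0.814. All MEF libraries, at 24.4 to 37.4 per 100, lay above all others.

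Rps4y2, named Rps4l in GENCODE and listed as a transcribed pseudogene by RefSeq, lies on chromosome 6 (mm10, 6:148354656-148355598) and is related to the X-linked 40S gene Rps4x. It measured 23.6, 33.9 and 22.6 CPM in MEF, 37.0, 52.4 and 47.9 CPM at Stage1, 82.9, 87.9 and 71.4 CPM at Stage2, and 106, 105 and 81.6 CPM in iPSC. Each of the first 2 steps was a rise, of 0.77 ± 0.18 and 0.82 ± 0.18 on the log2 scale, and the last was not called (0.27 ± 0.18, edgeR, adjusted p = 0.298). Counts per 100 of Rps4x were 3.08 ± 0.634, 4.21 ± 0.845, 9.11 ± 1.44 and 7.4 ± 0.937 in the same order.

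Rps27l, a relative of Rps27 known as a target of p53, measured 403, 647 and 277 CPM in MEF, 158, 199.7 and 202 CPM at Stage1, 112, 138 and 99.6 CPM at Stage2, and 166, 193 and 173 CPM in iPSC. It fell by 1.25 ± 0.23 and then by 0.68 ± 0.22, and the log2 value from Stage2 to iPSC, 0.60 ± 0.22, was not called (edgeR, adjusted p = 0.0717). No ratio is given, because Rps27 itself could not be read. Rpl7l1 measured 122, 161 and 94.0 CPM in MEF, 299, 359 and 336 CPM at Stage1, 202, 191 and 177 CPM at Stage2, and 253, 239 and 179 CPM in iPSC. Per 100 counts of Rpl7 it stood at 11.4 ± 2.23 in MEF, 20.7 ± 1.13 at Stage1 and 12.1 ± 2.13 in iPSC, so the Stage1 libraries lay above all others. Rpl3l, the muscle relative of Rpl3, had 0, 16, 24 and 33 counts in MEF, Stage1, Stage2 and iPSC, which is at least 5.62-fold more at Stage1 than in MEF over the same floor.

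**Figure D4:**
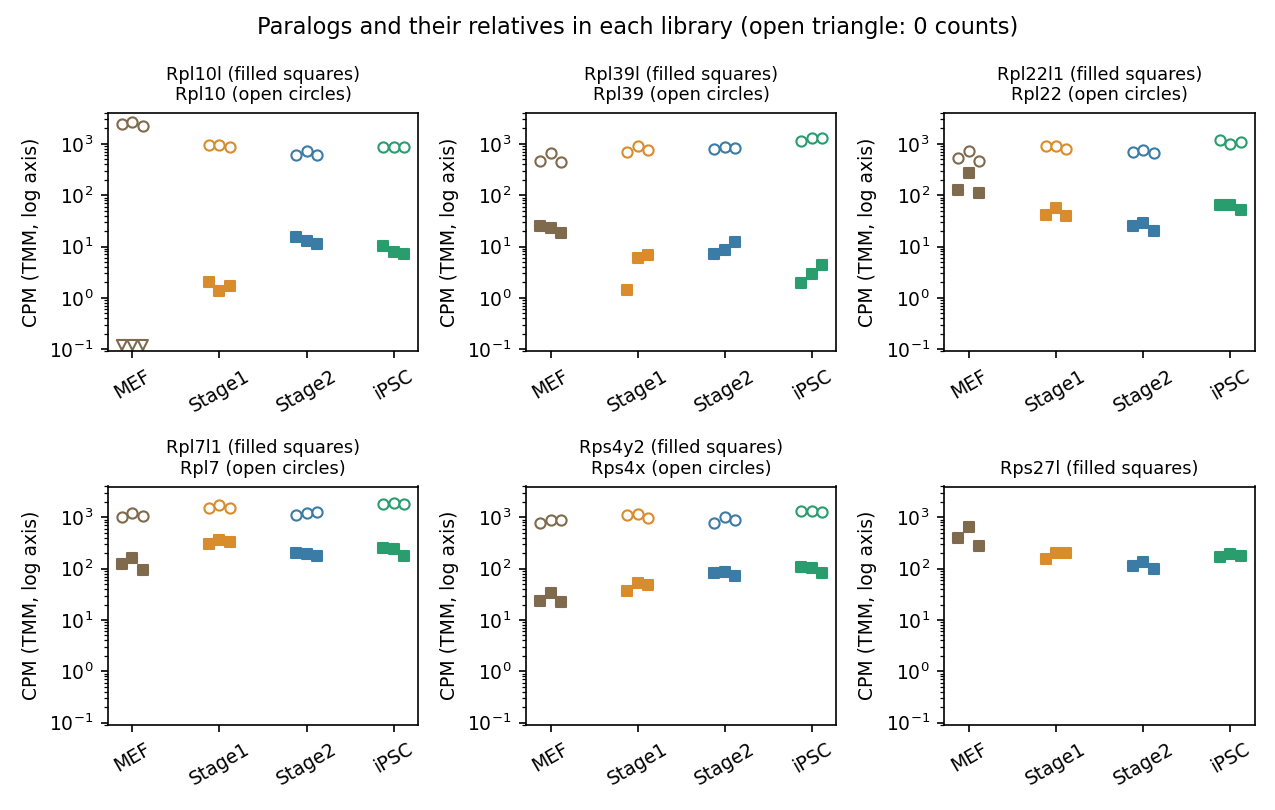
CPM scaled by TMM (y axis, log scale) of 6 relatives (filled squares) and, where readable, the gene they are related to (open circles) in each library by group (x axis), with open triangles for 0 counts. Rpl10l goes from 0 counts in MEF to 15.2, 12.8 and 11.1 CPM at Stage2, and Rpl39l and Rpl22l1 are highest in MEF.

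Promoters from RefSeq (GRCm38.p6, 250 bases before to 50 after the start) were matched for 63 of the 84 genes. The letters CTCTTTC, a short pyrimidine run, were found on the sense strand, that of the RNA, in 13 of the 63 (20.6%) and in 4.60% of 27025 genes. On the other strand they were found in 5 of the 63 (7.94%) and in 4.91% of genes. In 5 genes the run began between 10 bases before and 20 after the start, and 4 of these, each with a single start in the table, are shown with the run in capitals, from 60 bases before to 20 after the start.
Rpl18 (chr7:45718011-45718090, plus strand): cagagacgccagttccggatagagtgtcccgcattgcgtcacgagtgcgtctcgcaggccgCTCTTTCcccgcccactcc
Rpl28 (chr7:4792905-4792984, plus strand): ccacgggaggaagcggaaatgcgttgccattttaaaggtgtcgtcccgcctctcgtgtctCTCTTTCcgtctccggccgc
Rpl35 (chr2:39005112-39005191, minus strand): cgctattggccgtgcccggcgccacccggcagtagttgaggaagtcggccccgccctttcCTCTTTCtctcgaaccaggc
Rps26 (chr10:128626487-128626566, minus strand): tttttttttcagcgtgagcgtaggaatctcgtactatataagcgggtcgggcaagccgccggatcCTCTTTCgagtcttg
From MEF to Stage1 these 4 did not move one way. Rpl18 and Rpl28 fell by 1.52 ± 0.18 and 1.27 ± 0.13 on the log2 scale, Rps26 rose by 0.34 ± 0.15, and Rpl35, an exon of which overlaps Wdr38 on the other strand, was not called (0.09 ± 0.19). The fifth, Rpl35a, rose by 0.58 ± 0.18. Rpl28 measured 543, 526 and 684 CPM in MEF and 258, 254 and 217 CPM at Stage1, and Rps26 measured 625, 775 and 707 CPM and 874, 982 and 819 CPM. Over the 12 tested genes with CTCTTTC anywhere in the window, 5 rose and 2 fell, and over the 50 tested without it, 15 rose and 16 fell, where 44.2% of all genes tested rose and 36.1% fell. The letters CCGGAAG, which are not contained in the first motif and were searched on either strand, were found in 26 of the 63 (41.3%) and in 9.93% of genes. Of the 25 of these that were tested, 7 rose and 7 fell, against the same shares of all genes. These matches are descriptions of the letters in this window.

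Of the 84 genes, 30 carry a small nucleolar RNA within their span in GENCODE. From MEF to Stage1, 12 of the 29 tested hosts rose and 6 fell, and 17 of the 53 other tested genes rose and 19 fell, against 44.2% and 36.1% of all genes. From Stage2 to iPSC 19 of the 29 hosts and 25 of the 53 others were called higher, against 9.21% of all genes. Across the 82 genes, Spearman's rho between the fold change of Stage1 against MEF and the GC content of the coding sequence was -0.16, where it was -0.20 across 14624 genes, and with the share of 50-base stretches found in other genes it was -0.09. These are correlations across genes, which share libraries and are not independent replicates.

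Other genes of ribosome production mostly rose from MEF to Stage1 and fell from Stage1 to Stage2. Over all genes tested, 44.2% rose and 36.1% fell at the first of these steps, and 20.6% rose and 19.8% fell at the second. Of 59 ribosome assembly factors tested, 58 rose from MEF to Stage1 and 1 was not called, with a median log2 fold change of 2.15. Dkc1, the pseudouridine synthase of small nucleolar particles, measured 36.2, 30.7 and 37.8 CPM in MEF, and at Stage1 it stood at 619, 649 and 683 CPM, with no overlap. Of 14 genes of the RNA polymerase I machinery, which makes ribosomal RNA, 13 rose and 1 was not called (median 1.71). Of 14 chaperones and importers of ribosomal proteins, 12 rose and 2 were not called (median 1.49). From Stage1 to Stage2, 53 of the 59 assembly factors, 11 of the 14 polymerase I genes and 11 of the 14 chaperones and importers fell, and the others were not called. With library totals these were 46, 8 and 4.

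From Stage2 to iPSC, 11 assembly factors rose and 5 fell, 2 polymerase I genes rose, and 3 chaperones and importers rose, where 9.21% of all genes tested rose and 8.87% fell. With library totals 5 assembly factors rose, and leaving out any 1 library of Stage2 or iPSC left 2 to 7 that rose. Against Stage1, 46 of the 59 assembly factors were lower in iPSC and 13 were not called, against 18.1% of all genes lower. Of 16 other TOP messages, such as elongation factors, 9 rose and 3 fell from MEF to Stage1, 9 fell from Stage1 to Stage2, and 7 rose and 1 fell from Stage2 to iPSC. With library totals 4 fell from Stage1 to Stage2, and 3 rose and 2 fell from Stage2 to iPSC. Npm1, the nucleolar chaperone nucleophosmin, went from a mean of 1458 CPM in MEF to 11598 CPM at Stage1. Of 26 initiation factors tested, 19 rose and 5 fell at the first step, 22 fell at the second, and 5 rose and 1 fell from Stage2 to iPSC. With library totals 14 fell at the second step, and 5 rose and 5 fell from Stage2 to iPSC.

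Regulators moved in both directions. Of 16 genes of mTORC1 and of TOP message control, 9 rose and 3 fell from MEF to Stage1, against 44.2% and 36.1% of all genes. Larp1, the repressor of TOP messages, rose by 1.32 ± 0.15 on the log2 scale at that step, while Akt1 fell by 3.09 ± 0.18 and Rheb, the activator of mTORC1, by 1.85 ± 0.16. Larp1 then fell by 0.50 ± 0.15 from Stage2 to iPSC. Mycn, a transcription factor known to act on ribosome genes, measured 0.626, 0.801 and 0.964 CPM in MEF and 101, 111 and 125 CPM at Stage1. Its relative Myc measured 51.9, 45.9 and 42.7 CPM at Stage1 and 5.76, 3.03 and 2.39 CPM at Stage2, a log2 fold change of -3.69 ± 0.35.

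Some genes of the ribosome fall outside the symbol rule. Fau and Gnb2l1 (also named Rack1), both of the 40S, fell from MEF to Stage1 by 1.97 ± 0.18 and 1.44 ± 0.19 and rose from Stage2 to iPSC by 0.57 ± 0.17 and 0.58 ± 0.19 on the log2 scale. Rpl36al was called lower at the second step (-0.47 ± 0.13) and not at the steps before and after it. The calls of Fau, Gnb2l1 and Rpl36al from Stage1 to Stage2 and from Stage2 to iPSC were not made with library totals.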

How the data were processed

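The deposited files hold raw counts of reads per gene symbol, as whole numbers without normalization. Per the submitters' processing notes, the build was mm10 and the tools were TopHat2 2.0.9, Bowtie2 2.2.6, SAMtools 0.1.19, HTSeq 0.5.4p3 and DESeq2 1.12.4. The annotation version and the strand setting are not given in the sources used here. HTSeq's summary lines stayed out of library sizes and tests. Of these, reads outside genes were 8.86% to 53.4% of reads on genes, outside genes or ambiguous. Total RNA was isolated with a miRNeasy kit, per the labels' protocols.

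A model of all 12 libraries was fitted with edgeR 4.0.16 (run under R 4.3.3, beside limma 3.58.1 and statmod 1.5.0), with a term per group, genes kept by filterByExpr, TMM scaling and a robust quasi-likelihood test. Called means a Benjamini-Hochberg adjusted p below 0.05 over 14770 genes. Dividing the size of a log2 fold change by the root of its F statistic gave its SE. The procedure was tested on simulated data. Floors, of 3 counts over the 3 libraries of a group, cover counting error only.

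The 84 genes and all gene lists, as well as the naming rule, were chosen with earlier results of these data known. The rule names the 6 called genes per comparison and direction with the largest change and at least 5 CPM, all relatives, the stalk genes, Rps6, Rpsa, Rps19, Rpl5, Rpl11 and Rps27a, and up to 4 genes per list. Rpl28, Rpl35, Rps26, Rpl31, and Rps16 and Rpl35a at a step where the rule does not name them, were chosen after their values were seen. Some genes that the rule names are not reported here. Rps4y2 was matched to GENCODE M21 under a newer symbol. Alternatives were RLE scaling, library totals with and without structural and small RNA genes, no filter, a filter of 1 CPM in 3 libraries, pseudogene rows added to the parent gene, only the groups compared, the replicate block, DESeq2 1.42.0, leaving out each library and, added after seeing the data, removal of a GC trend (lowess span 0.3).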

Additional observations from a re-analysis of the deposited data

Results flagged for a closer look

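Reads outside genes, which no comparison used, had mean shares of 42.8%, 49.9% and 38.8% at Stage1, Stage2 and in iPSC, against 9.21% ± 0.304 (SD, n = 3) in MEF. Shares are over reads on genes, outside genes or ambiguous. Their part in the levels of the ribosomal protein genes was not tested. Rps19-ps3, a pseudogene row outside the rule, measured 1.63 ± 0.52 CPM of library totals at Stage1, 1.58 ± 1.06 at Stage2 and 1.62 ± 0.793 in iPSC. These lay above the 0.292 ± 0.273 in MEF, although a library of Stage2 at 0.648 CPM lay close to the highest MEF library at 0.605.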

How the results depend on the processing

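For Stage1 against MEF, 18 genes were called higher with the GC trend removed and 18 with only the 2 groups in the fit, and the median was 0.22 with library totals, -0.087 with the GC trend removed and -0.066 with only the 2 groups. For Stage2 against Stage1, 21 were called lower with RLE scaling, 6 with library totals, 4 with library totals without structural and small RNA and 55 with only the 2 groups, with medians of -0.19 and -0.18 under library totals with and without those RNAs. For iPSC against Stage2, 29 and 26 were called higher under those totals, and 2 and 3 lower with the GC trend removed and with only the 2 groups. For iPSC against Stage1, 18, 17 and 31 were called higher with library totals, with totals without those RNAs and with only the 2 groups, and 1 lower with no filter. For iPSC against MEF the median was 0.45 and 0.35 under the totals and -0.036 with the GC trend removed. With the GC trend removed, Rpl7, Rpl39 and Rps4x for Stage1 against MEF were at -0.086, -0.22 and -0.28, and Rps3a1 for iPSC against MEF at -0.41. The cause was not tested. Leaving out 1 library of the groups compared gave 26 to 40 called higher, 24 to 32 lower and a median of -0.099 to 0.33 for Stage1 against MEF. It gave 9 to 27 lower for Stage2 against Stage1, 18 to 31 higher and 0 to 1 lower for iPSC against Stage2, 3 to 4 higher and 1 to 2 lower for iPSC against Stage1, and a median of 0.056 to 0.36 for iPSC against MEF. Of 1548 checks of a named called gene under an alternative, 1394 kept direction and call, 151 kept direction only and 3 changed direction. This total pools all comparisons. For Stage2 against Stage1, of 17 named called genes 7 kept the call with library totals and 5 with totals without structural and small RNA. Without Stage1 replicate 2, 8 kept it, while all 17 did with the replicate block and with only the 2 groups. With the replicate block, calls were 30 higher and 25 lower, 3 and 36, 46 and 1, 7 and 2, and 35 and 26 in the order above. Same-numbered libraries of different groups correlated at -0.0675 to 0.197. Yet 8 of 12 libraries correlated best with one of their own number, where 1 in 3 of the libraries they were matched with shared it. The numbers were not taken to pair samples in the main fit, and whether they do was not tested.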

Other observations

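Rows marked as ribosomal protein pseudogenes numbered 6, and 2 of them were higher in MEF than elsewhere. Rpl31-ps12 measured 35.7, 56.1 and 41.0 CPM of library totals in MEF, and 3.34 to 6.31 CPM in the 9 other libraries. On the same scale, Rps15a-ps4 had a mean of 18.1 ± 6.12 CPM in MEF (SD, n = 3). It had 3.55 ± 1.05, 3.96 ± 0.739 and 5.19 ± 0.185 CPM at Stage1, Stage2 and in iPSC, with no overlap with MEF. Rpl31 itself went the other way, from 442 ± 108 CPM in MEF to 1022 ± 26.3 at Stage1 (edgeR, log2 fold change 1.21 ± 0.16), and an exon of it overlaps Tbc1d8 on the other strand. Adding each pseudogene row to its parent gene gave 28 genes called higher and 25 lower for Stage1 against MEF.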
